A study of Homo sapiens with 6 samples.

Results

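The NF-kB family was followed in the RNA-seq of cultured cells exposed to cationic liposomes (CLs). The members were the 10 gene symbols NFKBIZ, NFKBIA, NFKBIB, NFKBIE, NFKB1, NFKB2, RELA, RELB, REL and TNFAIP3, all of them found among the 40205 symbols of the count table. NFKBIZ stood on the list because it was lower in the CLs-treated group, so its difference is described and not tested. The others belong to the family by name. HepG2 cells, a human hepatoma line, were either left as the control group (Control-1 to Control-3) or exposed for 24 h to CLs at 120 μM by the sample labels (CLs-1 to CLs-3). For the concentration that it chose, the text of the study gives the same figure in μg/ml. The CLs were made of DOTAP, cholesterol and a PEG-coupled lipid in phosphate-buffered saline, and the labels name no vehicle for the control group. All 6 samples came from 1 cell line in serum-containing medium with penicillin and streptomycin. The study calls its sequenced samples independent without saying whether they were separate cultures, so the spread between them may be technical.

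NF-kB is a dimer of Rel-domain proteins, RELA, REL, RELB, p50 from NFKB1 and p52 from NFKB2. In resting cells the dimers are held in the cytoplasm by the classical IkB proteins, encoded by NFKBIA, NFKBIB and NFKBIE, until the IKK kinases mark these for degradation. NFKBIZ encodes IkB-zeta, an atypical IkB that is itself induced by NF-kB, resides in the nucleus and is needed there for a subset of inflammatory target genes. TNFAIP3 encodes A20, a ubiquitin-editing enzyme that shuts the pathway off upstream of IKK. Several of these genes are themselves NF-kB targets, and hepatocytes use the pathway in the acute-phase response and for survival under TNF.

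Each library held 11418527 to 13998946 counts on genes. The label HepG2 was set against 20 hepatocyte genes. Of these, 8 were at or under the floor of 3 counts in all 6 libraries, among them APOC3, APOH and TTR at 0, and 7 were over the floor in CLs-1 alone. Albumin (ALB) was at 0 in 5 libraries and at 8 counts in CLs-1, and alpha-fetoprotein (AFP) had at most 1 count in any library. CEBPA, the only 1 of the 20 with enough reads to be tested, had 21 to 49 counts in every library. Defining liver markers such as ALB and AFP were thus nearly absent, and the cells are called here by their label only. The summed level of the liver list was 3.21 to 4.84 CPM in the control group and 3.46 to 15.5 CPM in the CLs-treated group, with 15.5 CPM in CLs-1. Some markers of other cell types also stood out in CLs-1. The list held 18 genes of blood, immune, endothelial, fibroblast and steroid-making cells. They summed to 327 CPM in CLs-1 against 86.0 to 133 CPM in the other 5 libraries. The largest parts in CLs-1 were COL1A1 at 171 and COL1A2 at 72.3 CPM, with HBB at 22.4 and STAR at 20.1 CPM. COL1A1 was also at 66.3 to 112.5 CPM in the other 5 libraries, whereas COL1A2, HBB and STAR had at most 4 counts there. The rise was not shared by all. PTPRC and PECAM1 had 1 count each in CLs-1, CD3E and MS4A1 had 0, and CD68 was higher in CLs-3. In bulk RNA, fewer cells of a type and less RNA per cell cannot be told apart. CPM, used throughout, are counts scaled to a common library total with TMM factors, and sets of 3 values are given in the order of the replicate numbers.

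The promoters of the family are shown first because most of them hold the kappa-B motif, the DNA element that NF-kB dimers bind. The motif was searched on both strands in its 10-letter consensus, G, G, G, a purine, any pair of bases, a pair of pyrimidines and C, C. The windows ran from 250 bases before to 50 bases after each start site of RefSeq, on GRCh38.p14. Windows were found for 8 of the 10 members, and NFKBIE and RELB had none. At least 1 match was present in 7 of these 8 members, RELA being the exception, against 13.3% of the 27305 genes with a window. Counted by window, 9 of the 14 family windows (64.3%) held a match, against 11.3% of all 35116 windows. Matches on opposite strands or shifted by 1 base can overlap, and a match is only a run of letters. The 250 bases before the upstream start site of NFKBIZ, chr3:101827740-101827989 on the plus strand, carried 1 match, and those before the start site of NFKBIA, chr14:35404750-35404999 on the minus strand, also carried 1. Capitals mark the matches.
NFKBIZ: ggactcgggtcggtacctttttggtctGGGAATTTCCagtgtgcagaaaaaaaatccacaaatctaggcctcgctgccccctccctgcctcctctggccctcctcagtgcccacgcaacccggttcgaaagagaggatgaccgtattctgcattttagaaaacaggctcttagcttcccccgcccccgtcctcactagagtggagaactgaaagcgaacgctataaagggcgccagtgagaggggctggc
NFKBIA: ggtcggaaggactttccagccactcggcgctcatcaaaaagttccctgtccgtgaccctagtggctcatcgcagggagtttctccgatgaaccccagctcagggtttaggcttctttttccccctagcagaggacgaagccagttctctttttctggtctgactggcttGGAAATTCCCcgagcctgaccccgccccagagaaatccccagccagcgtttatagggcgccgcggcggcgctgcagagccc

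For the other windows with a match, 1 match of each is given with 10 bases on either side, each on the strand of its gene, to let the letters be compared, and capitals mark that match. Further matches in the windows of REL, TNFAIP3, NFKB2 and NFKBIB are not shown. Read on the strand that fits the consensus, the match was the same 10 letters in the upstream window of NFKBIZ and in the windows of NFKB1, NFKBIB and NFKBIA, at 223, 49, 28 and 81 bases before the start site, with that of NFKBIA on the opposite strand of its gene. REL had a match with these letters as well, on the opposite strand at 46 bases and overlapping the one shown at 47 bases.
NFKBIZ, downstream start site, chr3:101849265-101849294: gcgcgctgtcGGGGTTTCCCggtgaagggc
NFKB1, chr4:102501300-102501329: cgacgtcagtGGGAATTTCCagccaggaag
REL, chr2:60881517-60881546: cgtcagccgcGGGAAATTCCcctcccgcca
NFKB2, second start site, chr10:102394461-102394490: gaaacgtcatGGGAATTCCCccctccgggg
NFKB2, a further start site, chr10:102395674-102395703: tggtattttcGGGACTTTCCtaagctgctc
NFKBIB, second start site, chr19:38899931-38899960: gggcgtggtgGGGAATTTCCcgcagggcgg
TNFAIP3, chr6:137867182-137867211: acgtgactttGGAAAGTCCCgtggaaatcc

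In the count data every member passed the filter on low counts. All 10 had a lower fitted mean in the CLs-treated group, with log2 fold changes from -1.05 for NFKBIZ to -0.06 for TNFAIP3. A lower fitted mean was found for 47.9% of all genes tested. A gene was called when its fold change was above 1.5 or below 0.67 and edgeR's quasi-likelihood test gave an adjusted p-value under 0.05. None of the members was called, beside 0.0864% of the 15047 genes tested (0.0133% higher and 0.0731% lower after CLs). In DESeq2, and in edgeR when low genes were kept, 1 member was called, NFKBIZ, beside 0.605% and 0.444% of genes called lower. NFKBIZ was chosen by this contrast, so nothing is read from that call. The members did not share a size of difference. NFKBIZ was at 0.483 of its control level and NFKB2 at 0.680, whereas NFKBIA, NFKBIB, NFKB1 and TNFAIP3 lay between 0.888 and 0.957. The median log2 fold change was -0.31 for the 10 members and -0.25 for the 9 others than NFKBIZ, beside 0.01 for all genes tested. Of the 9 others, 1 (NFKB2) was under 0.05 before adjustment, as were 5.81% of all genes. As the list was drawn up with this comparison known, these counts describe the members and carry no test.

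**Figure D1:**
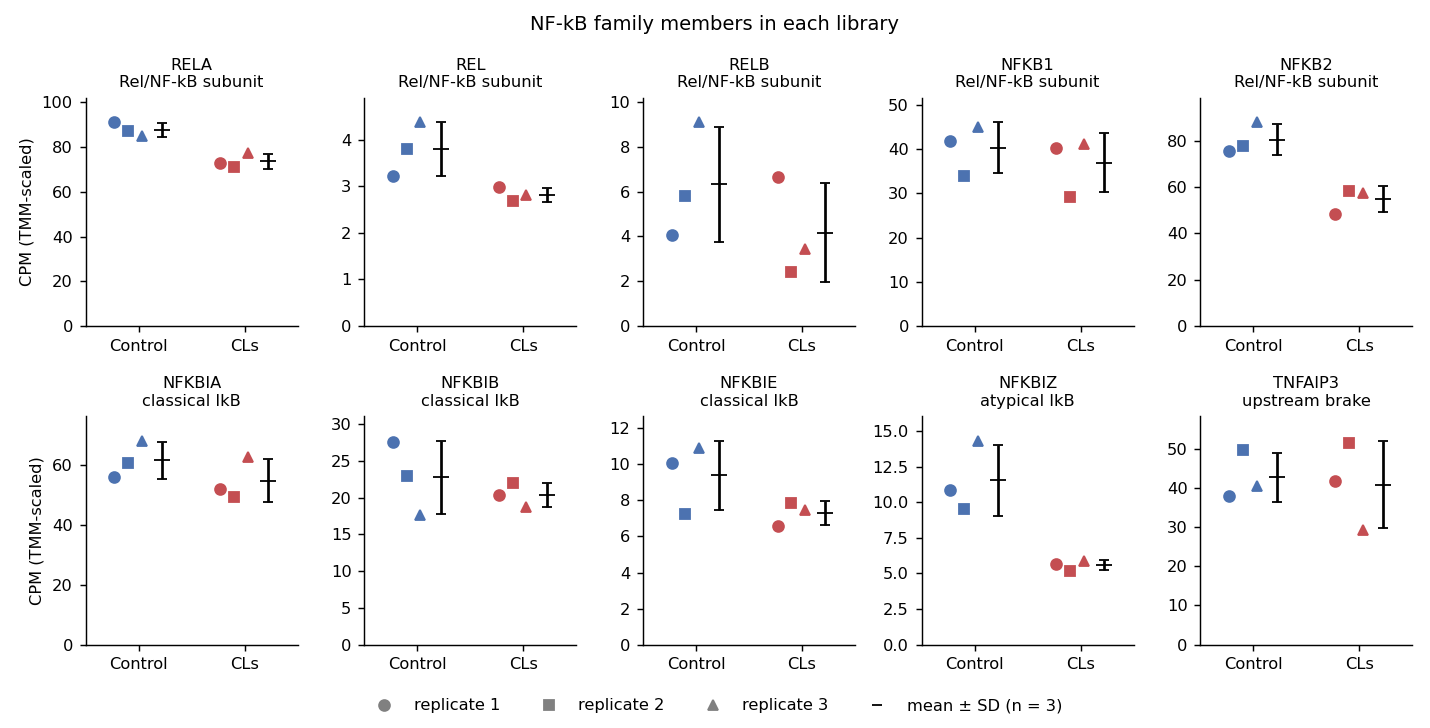
TMM-scaled CPM of the 10 NF-kB family members (vertical axes, each from 0) in the 3 control (blue) and 3 CLs-treated (red) libraries, with symbols for the replicate number and the mean ± SD (n = 3) in black. NFKBIZ, NFKB2, RELA and REL had no overlap between the groups, and in RELB the library CLs-1 stood apart from CLs-2 and CLs-3.

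Among the Rel-domain subunits, RELA, which carries the main transactivation domain of the canonical dimer, had the smallest standard error of the members. Its level was 91.1, 87.1 and 85.0 CPM in the control group and 72.8, 71.0 and 77.4 CPM in the CLs-treated group. The 3 CLs-treated libraries lay below all 3 controls. The group means were 87.7 ± 3.10 (SD, n = 3) and 73.7 ± 3.30 (SD, n = 3) CPM. The log2 fold change was -0.25, with a standard error of 0.12 and a 95% interval from -0.52 to 0.02 (edgeR adjusted p = 0.872).

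NFKB2, the gene of the p100 precursor that is cut to p52 in the alternative route, showed the largest difference among the members other than NFKBIZ whose groups did not overlap. Its level was 75.5, 77.9 and 88.0 CPM in the controls and 48.2, 58.4 and 57.6 CPM after CLs. Every CLs-treated library was below the lowest control, and CLs-1 was the lowest of all. The means were 80.4 ± 6.64 and 54.7 ± 5.68 CPM (SD, n = 3 in each group). On the log2 scale the fold change was -0.56 with a standard error of 0.14 and a 95% interval from -0.86 to -0.25, and the edgeR adjusted p over all genes was 0.258, with a range of 0.0611 to 0.711 over the alternatives.

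NFKB1, which encodes the p105 precursor of p50, had overlapping groups. It stood at 41.9, 33.9 and 45.1 CPM in the controls and at 40.4, 29.3 and 41.2 CPM in the CLs-treated libraries. Control-2 and CLs-2 were the lowest of their groups. Its log2 fold change of -0.13 (standard error 0.17, 95% interval from -0.51 to 0.26, edgeR adjusted p = 0.998) was smaller than its standard error. Without CLs-2 the value was 0.02.

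RELB, the partner of p52, was low and spread widely. The controls held 47, 67 and 106 counts, the CLs-treated libraries 96, 28 and 39. After scaling, CLs-1 lay above 2 of the 3 controls, and CLs-2 and CLs-3 lay below all 3. Its log2 fold change was -0.58 with a standard error of 0.39 (95% interval from -1.44 to 0.27, edgeR adjusted p = 0.958). It was -1.11 without CLs-1, -0.32 without CLs-2 and -0.23 without Control-3, so single libraries decided its size, and none of these values passed the test. The part played by the other cell type markers of CLs-1 in this value was not tested.

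REL, which encodes c-Rel, the subunit best known from lymphocytes, was the least abundant member, with 37, 44 and 51 counts in the controls and 43, 31 and 32 after CLs. After scaling these were 3.21, 3.80 and 4.37 CPM against 2.98, 2.68 and 2.80 CPM, and the groups did not overlap. The log2 fold change was -0.43 (standard error 0.26, 95% interval from -0.99 to 0.14, edgeR adjusted p = 0.939). By GENCODE release 29, 43.3% of the annotated exonic bases of REL are shared with another gene model, AC010733.2, so its count is uncertain where such reads were assigned otherwise.

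None of the classical inhibitors was called. NFKBIA, the gene of IkB-alpha and a rapid feedback target of NF-kB, was at 56.0, 60.9 and 68.2 CPM in the controls and at 52.2, 49.3 and 62.9 CPM in the CLs-treated libraries. The groups overlapped, since CLs-3 lay above Control-1 and Control-2. Its log2 fold change was -0.17 (standard error 0.15, 95% interval from -0.49 to 0.15, edgeR adjusted p = 0.998). The value was -0.09 without Control-3, -0.10 without CLs-2 and -0.28 without CLs-3.

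NFKBIB, the gene of IkB-beta, had 318, 266 and 206 counts in the control group, beside 294, 254 and 213 after CLs. The CLs-treated libraries fell inside the range of the controls once scaled, at 18.7 to 22.0 CPM against 17.7 to 27.6 CPM. The log2 fold change was -0.16 (standard error 0.19, 95% interval from -0.57 to 0.25, edgeR adjusted p = 0.998), and 0.001 without Control-1. NFKBIE, the gene of IkB-epsilon, was at 10.1, 7.25 and 10.9 CPM in the controls and at 6.58, 7.87 and 7.45 CPM after CLs. Control-2 lay within the CLs-treated range. Its log2 fold change was -0.37 (standard error 0.22, 95% interval from -0.85 to 0.11, edgeR adjusted p = 0.939). The 3 classical inhibitors thus had intervals that all included 0 and whose lower ends reached from -0.85 to -0.49.

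NFKBIZ was the member with the lowest ratio between the groups. The controls held 125, 110 and 167 of its counts and the CLs-treated libraries 82, 60 and 67, or 10.9, 9.50 and 14.3 CPM against 5.68, 5.19 and 5.87 CPM. The 3 CLs-treated libraries were close to each other and lay below every control, and Control-3 was the highest control. The means were 11.6 ± 2.49 and 5.58 ± 0.353 CPM (SD, n = 3 in each group). On the log2 scale the difference was -1.05 (standard error 0.22), and 0.671% of all genes tested had a log2 fold change as low or lower. Leaving out 1 library at a time moved it between -1.17 and -0.87, the latter without Control-3, and without CLs-1 it was -1.06. Beside it, 3 further genes listed as nuclear IkB genes were measured, and the list is not claimed to be complete. BCL3, which binds p50 and p52 dimers in the nucleus, differed by -0.07 on the log2 scale (standard error 0.26, edgeR adjusted p = 0.999), NFKBID, the gene of IkB-NS, by -0.09 (standard error 0.19, adjusted p = 0.998), and NFKBIL1 by -0.04 (standard error 0.16, adjusted p = 0.998). The groups overlapped in all 3 of these genes.

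TNFAIP3 differed less between the groups than any other member. It stood at 38.0, 49.9 and 40.5 CPM in the controls and at 41.8, 51.7 and 29.4 CPM after CLs. The highest and the lowest library were both CLs-treated. The log2 fold change was -0.06 (standard error 0.20, 95% interval from -0.51 to 0.38, edgeR adjusted p = 0.998), and its sign turned without CLs-3, to 0.13, or without Control-2, to 0.06.

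In 4 of the 10 members the groups did not overlap, all with lower values after CLs, namely NFKBIZ, NFKB2, RELA and REL. NFKBIZ was chosen by this contrast, so its separation carries no weight, and 3 of the 9 others were separated. As the list was drawn up with the comparison known, these counts are a description. Over all genes tested, 6.18% were separated in that direction and 5.34% in the other. Exact permutation of 3 samples against 3 cannot give a two-sided p below 0.10.

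**Figure D2:**
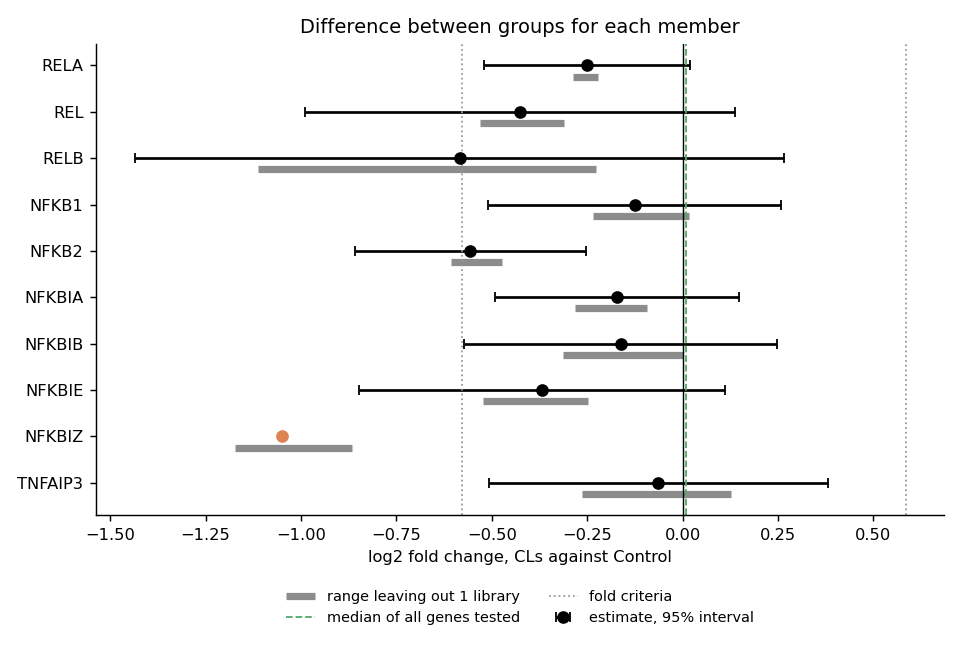
The log2 fold change of each member (CLs-treated against control, horizontal axis), with its 95% interval from the edgeR fit and, as a grey bar, the range of values when 1 of the 6 libraries was left out; NFKBIZ (orange) is drawn without an interval because its value chose it. All 10 points lay below the median of all genes tested at 0.01, and the widest grey bar, of RELB, ran from -1.11 to -0.23.

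Ratios of counts within a library do not depend on the scaling between libraries. There were 0.194, 0.156 and 0.210 reads of NFKBIZ for each read of NFKBIA in the controls and 0.109, 0.105 and 0.0933 after CLs. The ratio of NFKBIZ was thus separated between the groups, as its CPM were. Since NFKBIZ was chosen by this contrast, its ratio restates that choice and is no separate finding. For NFKB2 against RELA, the ratios were 0.828, 0.894 and 1.04 in the controls and 0.662, 0.823 and 0.744 after CLs, again without overlap but with Control-1 and CLs-2 nearly equal. NFKBIA against RELA gave 0.615, 0.699 and 0.802 in the controls and 0.717, 0.694 and 0.813 after CLs, and these groups overlapped. These ratios are descriptions and were not tested.

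The levels of the members were compared with each other per kb of annotated exon (GENCODE release 29), since longer transcripts collect more reads. In the control group the order on this scale of CPM per kb was NFKBIA at 26.0 ± 2.58, NFKB2 at 17.9 ± 1.48, RELA at 16.1 ± 0.567, NFKBIB at 9.79 ± 2.14, TNFAIP3 at 8.47 ± 1.24, NFKB1 at 6.45 ± 0.920, NFKBIE at 3.64 ± 0.739, RELB at 2.08 ± 0.839, NFKBIZ at 1.96 ± 0.421 and REL at 0.288 ± 0.0440 (SD, n = 3 each). NFKBIA was therefore the most abundant transcript of the family and REL the rarest. The ranges of neighbouring genes overlapped for NFKBIB and TNFAIP3, for NFKBIE and RELB, and for RELB and NFKBIZ, and did not overlap between the other neighbours. NFKB2 and RELA, which were near each other, changed places in the CLs-treated group, at 12.2 ± 1.27 and 13.5 ± 0.604 CPM per kb, and also in the control group when the longest coding transcript was taken as the length. By that length NFKBIZ also moved above RELB, to place 8 at 2.95 against 2.75 CPM per kb, and NFKB1 above TNFAIP3, at 9.87 against 9.04. Per kb of annotated exon NFKBIZ was at 0.945 ± 0.0598 CPM per kb after CLs, ninth as in the controls. Of the summed per-kb level of the 5 Rel-domain subunits, RELA made up 34.1% to 40.0% in the controls and 40.5% to 41.0% after CLs, and NFKB2 made up 40.2% to 42.8% and 32.6% to 41.0%.

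**Figure D3:**
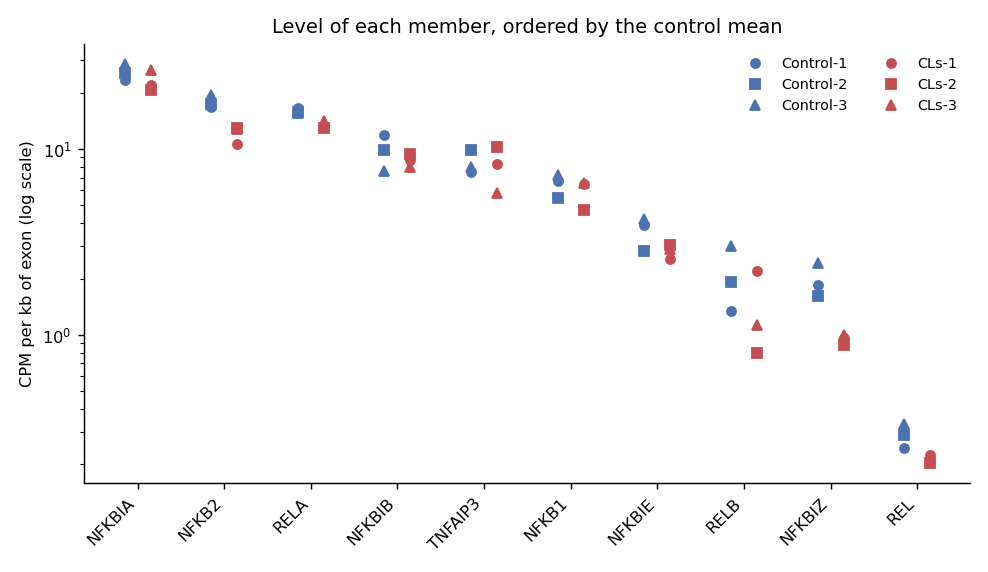
CPM per kb of annotated exon (vertical log axis) for each member in the 6 libraries, with the genes ordered by the control mean from NFKBIA at 26.0 to REL at 0.288. Blue symbols are control and red symbols CLs-treated libraries, 1 point each; NFKBIZ, ninth in the order, has its 3 red points below its 3 blue ones.

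The genes around the family were described with lists of 61 upstream genes and 51 targets, chosen by role. Of the upstream genes, 52 were tested, and 0 passed the criteria in edgeR or in DESeq2, beside 0.0864% and 0.711% of all genes tested. Before adjustment 2 of the 52 were under 0.05, TNIP1 and TNFRSF12A, beside 5.81% of all genes. The median log2 fold change of the 52 was -0.03, beside 0.01 for all genes, and it was 0.02 without Control-3 and 0.04 without CLs-2. In the IKK complex and the adaptors leading to it, none of the 22 genes had groups that did not overlap, beside 11.5% of all genes tested in either direction. The kinases CHUK and IKBKB had log2 fold changes of 0.00 (standard error 0.17) and -0.07 (standard error 0.16). For the scaffold IKBKG it was 0.23 (standard error 0.27), with reads that could be split with its near-identical pseudogene IKBKGP1.

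In the alternative route, the receptor gene TNFRSF12A, named after its values were seen, was at 493 to 901 counts in the controls and 433 to 618 after CLs, a difference of -0.52 on the log2 scale (standard error 0.21, edgeR adjusted p = 0.760), and its groups overlapped. TNFRSF11A, the gene of the receptor RANK, differed by 0.47 on the log2 scale (standard error 0.27, adjusted p = 0.926), and the other tested genes, MAP3K14, TRAF3 and LTBR, had values from -0.12 to -0.10. Of the 13 receptors, 7 had enough reads. Their median log2 fold change was 0.18, with 5 higher and 2 lower. IL1R1, named after its values were seen, had the largest value at 0.88 (standard error 0.58, edgeR adjusted p = 0.956), and its groups overlapped. The toll-like receptor gene TLR6 was higher in every CLs-treated library, by 0.47 on the log2 scale (standard error 0.22, adjusted p = 0.860), and TLR2 had at most 1 count in any library. Among the brakes of the pathway, TNIP1, whose product works with A20, was at 81.4 ± 0.627 CPM in the controls and 66.2 ± 5.97 CPM after CLs (SD, n = 3 in each group, log2 fold change -0.30, standard error 0.13, adjusted p = 0.818). OTUD7B and NKIRAS2 were separated too, OTUD7B by -0.19 (adjusted p = 0.958) and NKIRAS2 by 0.04 (adjusted p = 0.998) on the log2 scale.

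A short list held the proteins that degrade or restrain NFKBIZ mRNA, and all 5 of its genes were tested. ZC3H12A, the gene of the RNase Regnase-1, which cuts NFKBIZ mRNA, was at 21.3 ± 0.351 CPM in the controls and 25.1 ± 2.42 CPM after CLs (SD, n = 3 in each group). Its groups did not overlap, but the log2 fold change of 0.23 (standard error 0.15, 95% interval from -0.10 to 0.56, edgeR adjusted p = 0.951) did not pass the test. The other 4, ZC3H12C, RC3H1, RC3H2 and N4BP1, lay between -0.16 and 0.07.

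**Figure D4:**
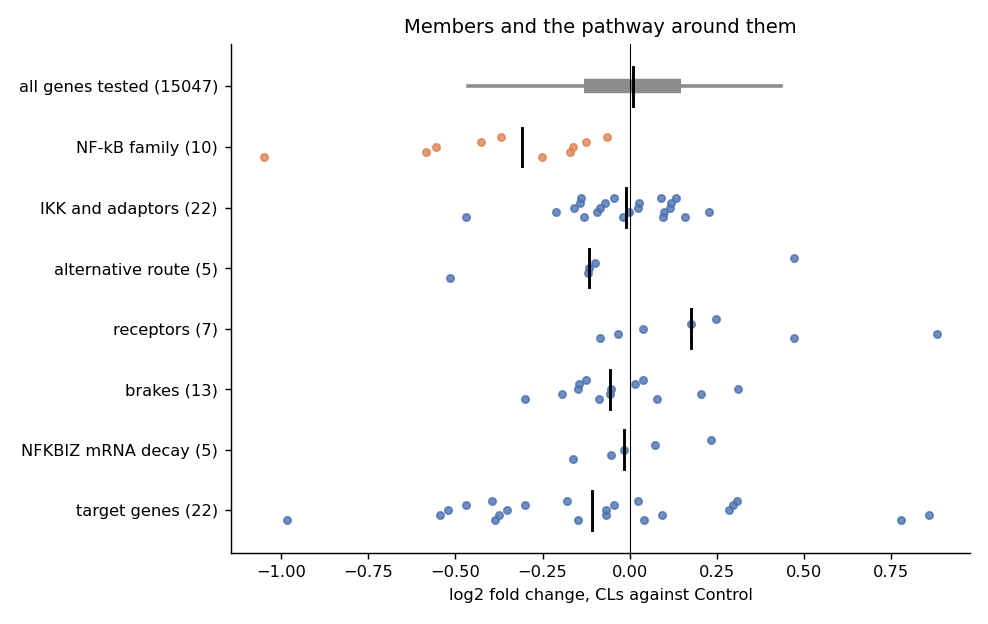
Log2 fold changes (CLs-treated against control, horizontal axis) of the tested genes of each list, 1 point per gene, with the number tested in brackets and black bars for medians; for all 15047 genes the thick and thin grey bars hold the middle 50% and 90% of values. The family had a median of -0.31, the IKK list -0.01 and the target genes -0.11, the last of which was 0.03 without Control-3.

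Of the target genes, 22 of 51 had enough reads. None passed the criteria in edgeR or in DESeq2, beside 0.0864% and 0.711% of all genes tested. At such shares a count of 0 says little about a list of this size. Before adjustment 3 were under 0.05, BCL2L1, EFNA1 and TNIP1, all lower after CLs. The share before adjustment over all genes tested was 5.81%. The targets' median log2 fold change was -0.11, with 8 higher and 14 of 22 lower, beside 47.9% of all genes lower. Leaving out Control-3 turned this median to 0.03, and without Control-2 it was -0.17. BCL2L1, which encodes the survival protein BCL-XL, was at 74.0 ± 7.44 CPM in the controls and 51.6 ± 3.23 CPM after CLs (SD, n = 3 in each group), without overlap. Its log2 fold change was -0.52 (standard error 0.13, 95% interval from -0.82 to -0.22, edgeR adjusted p = 0.288). EFNA1, a TNF-inducible ephrin, differed by -0.39 on the log2 scale (standard error 0.16, adjusted p = 0.775), and SDC4, the gene of syndecan-4, had 0.30 (standard error 0.17, adjusted p = 0.933).

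The most abundant targets overlapped between the groups, apart from TNIP1 and BCL2L1. CD44, an adhesion receptor, was at 382.3 ± 35.2 and 407.5 ± 64.0 CPM, and CCND1, the gene of cyclin D1, at 98.1 ± 23.2 and 74.6 ± 35.5 CPM, in the control and the CLs-treated group (SD, n = 3 each). TNFAIP2 and IER3, both early TNF-response genes, had their highest count in Control-3. TNFAIP2 had 573, 866 and 1729 counts in the control group, beside 706, 638 and 949 after CLs. IER3 had 497, 449 and 1010 counts in the controls and 477, 359 and 755 after CLs. Control-3 was also the highest control for NFKBIZ, NFKBIA, NFKBIE, NFKB1, NFKB2, RELB and REL. CCL5, a chemokine gene named after its values were seen, had its highest count there too, with 94, 53 and 567 counts in the controls and 139, 79 and 167 after CLs.

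The list of genes that use IkB-zeta for their induction could hardly be measured. Of its 13 genes, 1 was tested, the chemokine gene CCL2, at 5.93 ± 1.19 CPM in the controls and 5.74 ± 0.50 CPM after CLs (SD, n = 3 in each group). The difference was -0.04 on the log2 scale (standard error 0.23, 95% interval from -0.55 to 0.46, edgeR adjusted p = 0.999). Of genes named after their values were seen, LCN2, the gene of lipocalin-2, had 1, 0 and 4 counts in the controls and 16, 1 and 1 after CLs, and IL6 had 10, 6 and 1 against 5, 5 and 1. At such counts a fall in these genes could hardly be detected. Neither LCN2 nor IL6 showed a rise shared by all CLs-treated libraries.

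Among the low targets CLs-1 stood apart. The 29 targets without enough reads summed to 36, 40 and 68 counts in the controls and to 153, 43 and 29 after CLs. Of the 29, 9 were at 0 in all 6 libraries, 12 were over the floor in some library and 3 were over it in CLs-1 only. Among genes chosen after their values were seen, the interleukin-8 gene, listed as IL8, reached 28 counts in CLs-1, the other 5 libraries holding 8 or fewer. CXCL1 had 15 there and 0 in the others, PTX3 had 11 against 2 or fewer, and PLAU had 42 against 10 or fewer. PTGS2, the gene of cyclooxygenase-2, had enough reads to be tested and held 97 in CLs-1 against 38 or fewer. This is the library in which some of the other cell type markers were high and in which RELB stood apart. The part of one in the other was not tested. For NFKBIZ, CLs-1 at 5.68 CPM lay between CLs-2 and CLs-3.

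**Figure D5:**
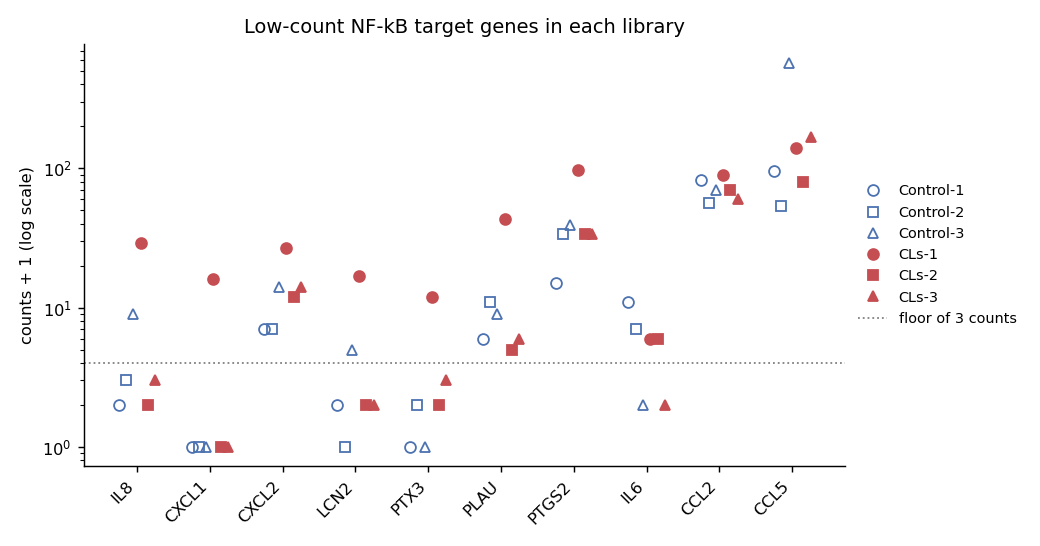
Counts plus 1 (vertical log axis) of 10 NF-kB target genes, low in counts apart from CCL5, in each library. Control is in open blue and CLs-treated in filled red, with a dotted line at the floor of 3 counts. The genes were picked with their values known. Some low targets not drawn were highest elsewhere, such as SAA1 in Control-1 at 12 counts and S100A7 in CLs-2 at 9. The filled circle of CLs-1 was the highest point for IL8, CXCL1, CXCL2, LCN2, PTX3, PLAU and PTGS2, and for CCL2 in counts but not in CPM, where Control-1 was higher at 7.12 against 6.09. Control-3 was the highest for CCL5 at 567 counts.

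The genes whose pattern over the 6 samples was most like that of NFKBIZ were taken by Pearson correlation of log2 CPM, among 11505 genes with a mean of at least 5 CPM. They were MGC57346 (r = 0.999), MICALL1 (r = 0.987), IVNS1ABP (r = 0.987), GBP1 (r = 0.985) and MYPN (r = 0.984). In all 5 the CLs-treated libraries lay below the controls, as for NFKBIZ itself, and 167 genes had r over 0.9. NFKBIZ was chosen by the contrast of the groups, and r was computed over the samples of both groups. A high r therefore favours genes whose groups are separated in the same way, and the shared separation is no separate finding. Only GBP1, an interferon-induced GTPase gene, had a difference as large as that of NFKBIZ on the log2 scale among these 5, at 7.27 ± 2.62 and 2.98 ± 0.264 CPM (SD, n = 3 each). Within the family, r with NFKBIZ was 0.93 for NFKB2, 0.87 for RELA, 0.80 for NFKBIE, 0.69 for NFKBIA, 0.64 for RELB, 0.53 for NFKB1, 0.08 for NFKBIB and 0.00 for TNFAIP3. These r values also include the difference between the groups and add no separate evidence of it. The points share the same 6 libraries and their scaling, and the values are descriptions.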

How the data were processed

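RNA-seq was run on an Ion Proton from total RNA of the 6 samples. The authors mapped single-end reads with MapSplice. The deposited counts are whole reads per gene symbol and carry no normalization. The submitters' processing notes name HTSeq 0.6.1 and the builds hg19 and GRCh37, and the handling of reads that match several places is not given in the sources used here. Depth was 11418527 to 13998946 counts per library. The floor of 3 counts covers counting error only, while the intervals come from the fit. All 6 columns were used, grouped by the sample titles.

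Genes were filtered with filterByExpr (15047 left) and scaled by TMM. Condition was the only term of a quasi-likelihood F test (edgeR 4.0.16, R 4.3.3), with Benjamini-Hochberg adjustment over all genes. EBSeq, the tool of the study, was not used here, but the study's fold and FDR criteria were kept. With EBSeq and these criteria the study listed NFKBIZ as down-regulated, and it included the gene in its qRT-PCR. The F statistic gave the standard error of each log2 fold change. On simulated data the test recovered 65.3% of the genes set to a fold of 2 (14871 genes) and 2.04% of those set to 1.5 (14893 genes). The members and gene lists were chosen with earlier results of these data known. Of each list, the genes named were those called, up to 4 with the smallest p among those whose groups do not overlap, the IKK subunits and, for targets, the 6 highest in CPM. Exon lengths came from GENCODE release 29 and promoters from RefSeq on GRCh38.p14, while the counts were made on an older build, so no coordinate of the counts is given. Protein sequences were not used here. The alternatives were DESeq2 1.42.0, other scalings and filters, no fold criterion, a replicate block and each library left out.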

Additional observations from a re-analysis of the deposited data

How the results depend on the processing

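Of 130 values of the 10 members under the alternatives, 126 kept their sign. Those that turned were NFKBIB without Control-1 (0.001), NFKB1 without CLs-2 (0.016), and TNFAIP3 without Control-2 (0.062) and without CLs-3 (0.126). Leaving out 1 library moved NFKBIB from -0.314 to 0.001, NFKB1 from -0.235 to 0.016 and TNFAIP3 from -0.264 to 0.126. The median of the family ranged from -0.34 to -0.26 when 1 library was left out, that of the targets from -0.17 to 0.03 and that of the upstream genes from -0.05 to 0.04, which also turned sign when scaled by library size (0.002). Counts of upstream and target genes passing the criteria stayed at 0 under every alternative run. For the family the count was 1, NFKBIZ, with DESeq2, where 0.711% of all genes passed, and with no filter on low counts, where 0.672% passed, and 0 otherwise. Over all genes, 2 were called higher and 11 lower. DESeq2 called 16 and 91, no filter 58 and 113, the replicate block 12 and 56, and scaling by library size lowered the second number to 6. Leaving out 1 library gave 1 to 3 and 2 to 6. The block used the replicate numbers that the groups share. Deviations of same-numbered samples correlated at 0.110, 0.085 and 0.298, each the highest for its sample, which does not show that the numbers pair the samples, and with the block 0 members passed and the family median was -0.30. The cause of these shifts was not tested. REL, at 31 to 51 counts per library, and RELB, at 28 to 106, had the lowest counts of the members.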
